A study of Mus musculus with 120 samples.

Results

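Mouse hearts of the series were sorted by their level of Myl7, the atrial myosin regulatory light chain, as a sign of atrial muscle in the sample. A heart counted as atrium-containing where its counts-per-million value (CPM, over its column total) for Myl7 was at least 64, and as atrium-free where it stayed under 16 CPM. Of 48 hearts whose columns could be tied to a labelled mouse, 24 were atrium-containing and 22 atrium-free. The labels cover 120 samples in all. Heart E42 lay between the limits and heart B80 was left out, since the training label of its soleus sample contradicts that of its heart. Myl7 chose the groups, so its own values are a description and carry no test.

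The series examines how mutations of mitochondria change the response to endurance training, by RNA sequencing of heart and soleus muscle. Its 4 strains used here share the C57BL/6EiJ background with an intact Nnt gene (Nnt+/+). ANT1 mice (Slc25a4-/-) lack the heart and muscle isoform of the adenine nucleotide translocator, which exchanges ADP and ATP across the inner mitochondrial membrane. In ND5, ND6 and CO1 mice a single amino acid of a mitochondrial DNA (mtDNA) product is exchanged, by a base change at position 12352, 13997 or 6589. From 16 weeks of age they either ran for 45 min at 50% of their maximal capacity on every 2nd day for 8 weeks (exercised) or were handled only (non-exercised), and were killed 6 days after the last session. Atrium-containing against atrium-free hearts numbered 6 against 6 in ANT1, 7 against 4 in ND5, 10 against 2 in ND6 and 1 against 10 in CO1. The labels give the tissue as heart and do not say which chambers were taken. Different mouse codes were taken as different mice, with 6 hearts per strain and training arm.

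Atrial and ventricular muscle of the adult heart use different sets of sarcomere proteins. The atria hold atrial light chains, the calcium pump inhibitor sarcolipin and granules of atrial natriuretic peptide, and the venous pole with the sinus node and the epicardial fat lies next to them. The ventricles hold the ventricular light chains and depend on a dense network of mitochondria that burn fatty acids. In a bulk sample, fewer cells of a type and less RNA per cell cannot be told apart.

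Myl7 itself (chromosome 11, 5896637 to 5898782 on the minus strand of GRCm38, the build that UCSC calls mm10) split the hearts with a wide gap. As CPM of the column total, the atrium-free heart nearest to the limit had 5.21, heart E42 between the limits had 30.5, and the lowest atrium-containing hearts had 77.9 and 79.8. After scaling by library size and composition (TMM), as in all CPM values that follow, Myl7 ranged from 84.6 to 3227 CPM (median 1443) in atrium-containing hearts, against 0.961 to 7.08 CPM (median 2.09) in atrium-free hearts. Myl7 was not at 0 in any atrium-free heart. Ventricular Myl2 was detected in every heart of both groups.

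**Figure D1:**
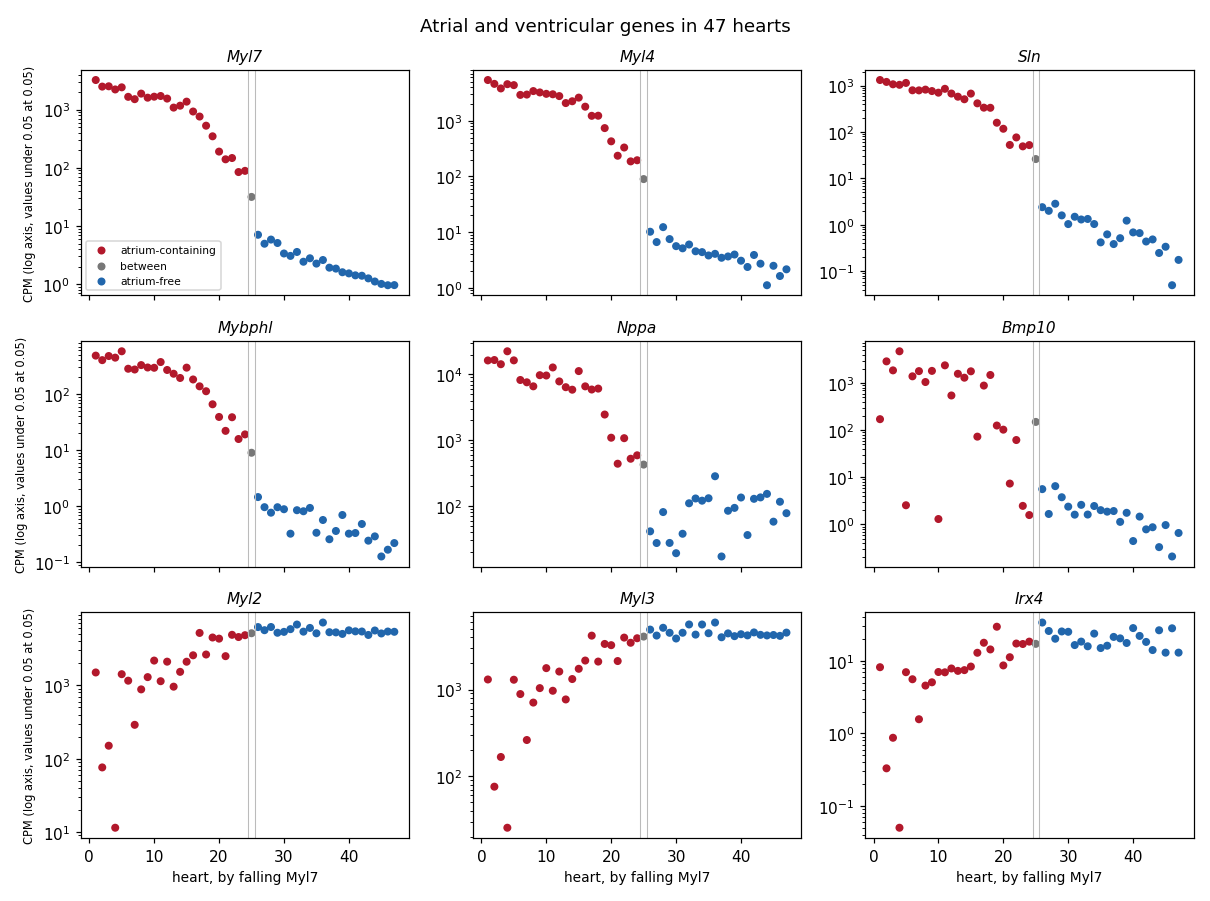
Levels of 6 atrial genes (top 6 panels) and 3 ventricular genes (bottom panels) in 47 hearts, in CPM on a log axis, with hearts ordered by falling Myl7 and atrium-containing hearts (red) on the left, heart E42 (grey) in the middle and atrium-free hearts (blue) on the right. Myl4, Sln, Mybphl and Nppa leave a gap between the groups, Bmp10 does not, and Myl2, Myl3 and Irx4 drop in the hearts of highest Myl7.

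The classes were then set against the other atrial markers. Myl4, the atrial essential light chain, ranged from 186 to 5385 CPM (median 2687) in atrium-containing hearts, against 1.11 to 12.3 CPM (median 3.93) in atrium-free hearts. No atrium-containing heart overlapped the atrium-free hearts. Ranking the hearts by Myl4 in place of Myl7 placed 46 of 46 alike. Nppa, which encodes atrial natriuretic peptide, also separated the groups without overlap, while Bmp10 did not, with 4 atrium-containing hearts inside the atrium-free range.

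The promoters of 4 genes that mark the atrium are shown, with matches to motifs of cardiac transcription factors in capitals. Of these genes Myl7 chose the groups, Nppa and Mybphl separated them, and Bmp10 did not. The sequences are RefSeq's for GRCm38.p6, read 5′ to 3′ on the strand of the gene around its annotated start.
Myl7, chr11:5898733-5899032, minus strand: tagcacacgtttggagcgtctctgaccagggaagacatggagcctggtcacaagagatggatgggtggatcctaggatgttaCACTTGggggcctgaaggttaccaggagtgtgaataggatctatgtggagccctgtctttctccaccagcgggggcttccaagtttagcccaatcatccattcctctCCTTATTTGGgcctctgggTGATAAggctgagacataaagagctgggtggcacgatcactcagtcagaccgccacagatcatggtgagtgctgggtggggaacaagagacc
Nppa, chr4:148000472-148000771, plus strand: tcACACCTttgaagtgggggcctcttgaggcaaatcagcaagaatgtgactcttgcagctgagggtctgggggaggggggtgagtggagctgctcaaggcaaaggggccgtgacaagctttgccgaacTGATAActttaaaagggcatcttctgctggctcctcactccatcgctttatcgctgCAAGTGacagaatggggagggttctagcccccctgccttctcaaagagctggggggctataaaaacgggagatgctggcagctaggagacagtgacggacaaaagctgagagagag
Mybphl, chr3:108364661-108364960, plus strand: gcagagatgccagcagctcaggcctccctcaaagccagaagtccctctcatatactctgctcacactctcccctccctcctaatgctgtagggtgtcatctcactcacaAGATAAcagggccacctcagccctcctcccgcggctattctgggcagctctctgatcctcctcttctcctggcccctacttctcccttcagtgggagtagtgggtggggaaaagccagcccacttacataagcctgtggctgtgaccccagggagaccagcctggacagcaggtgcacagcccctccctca
Bmp10, chr6:87428744-87429043, plus strand: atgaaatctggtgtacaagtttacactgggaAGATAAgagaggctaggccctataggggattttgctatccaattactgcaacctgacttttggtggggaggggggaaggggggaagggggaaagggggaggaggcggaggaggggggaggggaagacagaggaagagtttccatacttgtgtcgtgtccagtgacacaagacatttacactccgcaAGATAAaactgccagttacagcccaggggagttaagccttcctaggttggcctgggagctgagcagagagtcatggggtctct
Both strands were searched for GATA (the string AGATAA, the string AGATAG, the string TGATAA and the string TGATAG), T-box factors (the string AGGTGT), NKX2-5 (the string CAAGTG), COUP-TF (the string AGGTCA), the SRF CArG box and MEF2, and no matches overlapped. All 4 promoters held a GATA match, 2 of them in Bmp10, while 29.8% of the 32851 promoters in the table held at least 1. NKX2-5 letters occurred in Myl7 and Nppa (13.6% of all promoters), a T-box match in Nppa (13.7%) and a CArG box in Myl7 (1.63%). COUP-TF and MEF2 letters (16.3% and 3.19% of all promoters) were in none of the 4. A match is a string of letters and not a shown binding site.

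Library totals ranged from 19653353 to 26512283 counts. They did not pass the test between classes (two-sided permutation within strains, adjusted p = 0.315 over 3 tests). The number of genes with a count was higher in atrium-containing hearts, at a median of 20404 against 19457 in atrium-free hearts (adjusted p = 1.5e-05, resting on the smallest p that 100000 draws can give). Slc25a4 had 1.89 to 6.12 CPM in the 12 ANT1 hearts of both classes and 1614 to 3889 CPM in the 34 others, as their labels say. Heart B11 (ND5, exercised, atrium-containing) stood apart by genes of the airway lining, with Scgb1a1 at 806 CPM against at most 1.01 CPM in any other heart of either class.

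The comparison of the 2 classes, with strain as covariate, asks which genes follow atrial muscle beyond Myl7. Among 15646 genes tested by edgeR's quasi-likelihood test, 8818 (56.4%) passed an adjusted p of 0.05, 4704 (30.1%) higher and 4114 (26.3%) lower in atrium-containing hearts, while 9561 (61.1%) had an unadjusted p under 0.05. A fold change of at least 2 was reached by 1337 genes higher (8.55%) and 179 lower (1.14%). Leaving out any single heart moved none of these 4 counts by over 1.5 times, whereas some gene lists of other cell types moved more, as given with them. In 35 genes (0.224%) every atrium-containing heart lay above every atrium-free heart, and in 0 (0.0%) every one lay below. A gene that entered the test only through the class where it is high had to differ. Of the genes tested, 1321 would not have passed the low-count filter (at least 0.432 CPM in 6 hearts) from the atrium-free hearts alone. Among them were 12 of the 35 genes, and 576 of the 1337 genes at least 2-fold higher. The count of 1337 therefore rests in part on genes whose difference the filter fixed. From the atrium-containing hearts alone 276 would not have passed. Of the genes named, Cacna2d3, Cilp2, Cpne5, Fgf12, Gata5, Gjd3, Hamp, Isl1 and Lmntd1 belong to the 1321. So do Mlana, Myh8, Prph, Pvalb, Rxfp1, Syt1, Tmem163, Ucp1 and Vsnl1. The values of all of these are a description, and the counts of gene lists below include such genes. Since the hearts were sorted by a gene measured in the same libraries, the p of another gene measures how it goes with Myl7 over these hearts and not the effect of a treatment.

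The balance of the 2 directions depended on scaling. The median log2 fold change over all genes was 0.04 with TMM and 0.39 with library size alone, and with library size alone 10697 genes were higher and 1066 lower. The share of called genes that were higher was then 90.9%, against 53.3% with TMM. Small negative differences below are therefore differences relative to the typical gene, and directions that turn are named.

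**Figure D2:**
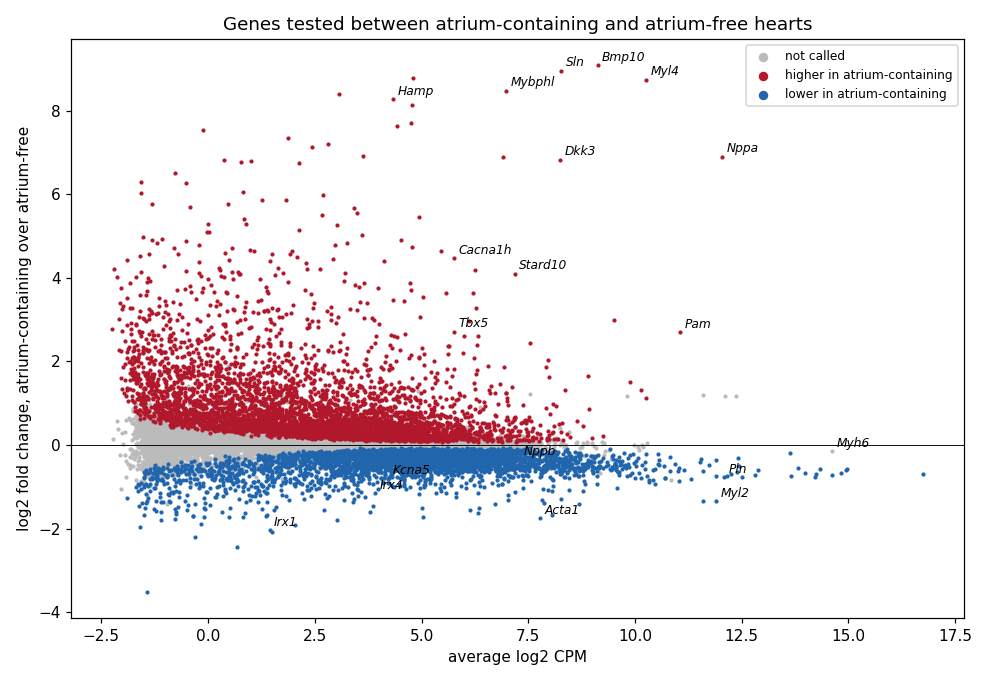
Log2 fold change of atrium-containing over atrium-free hearts (vertical axis) against the average log2 CPM (horizontal axis) for 15646 genes, with called genes higher in red, called genes lower in blue and others in grey. The genes higher by several log2 units, among them Bmp10, Sln and Myl4, have no counterpart of like size among genes lower in atrium-containing hearts, where Myl2 lies at -1.35.

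Genes listed as atrial contractile proteins led the difference. Besides sarcomere genes the list holds Sln and the kinase genes Sbk3 and Sbk2. Of 8 listed genes besides Myl7, 5 were higher and 2 lower in atrium-containing hearts, with a median log2 fold change of 5.77 against 0.04 over all genes. The log2 fold change of Myl4 was 8.74 ± 0.44 (adjusted p = 1.85e-19), where ± gives the standard error (SE), as after all log2 fold changes that follow. Sln, which encodes sarcolipin, an inhibitor of the sarcoplasmic calcium pump, ranged from 49.01 to 1315 CPM (median 672) in atrium-containing hearts, against 0 to 2.84 CPM (median 0.675) in atrium-free hearts. The groups were apart, with a log2 fold change of 8.96 ± 0.47 (adjusted p = 3.21e-19). Mybphl, a relative of myosin-binding protein C found in atrial sarcomeres, ranged from 15.8 to 581 CPM (median 272) in atrium-containing hearts, against 0.126 to 1.45 CPM (median 0.421) in atrium-free hearts. It too showed no overlap, at 8.48 ± 0.46 (adjusted p = 9.82e-19). The kinase genes Sbk3 and Sbk2 were higher by 6.90 ± 0.53 and 4.64 ± 0.44 log2 units, Sbk3 without overlap. Myl1, a fast light chain named after its values were seen, was higher by 2.98 ± 0.30.

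Not all sarcomere genes on that list were higher. Myh6, the alpha myosin heavy chain that adult mouse atria and ventricles share, ranged from 15116 to 31286 CPM (median 23369.6) in atrium-containing hearts, against 23075 to 31225 CPM (median 26659) in atrium-free hearts. Its log2 fold change was -0.15 ± 0.07 (adjusted p = 0.0772), and with library size alone the sign turned. Des, which encodes desmin, had a median of 1092 CPM in atrium-containing and 1652 CPM in atrium-free hearts, with a log2 fold change of -0.57 ± 0.10 (adjusted p = 1.2e-05). Myh7b, a slow myosin relative, was lower by the largest margin of the atrial list, at -1.51 ± 0.37 (adjusted p = 0.000743).

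Levels of the atrial and ventricular light chains were compared per length, as FPKM. Myl7 ranged from 237 to 10845 FPKM (median 4856) in atrium-containing hearts, against 2.69 to 15.6 FPKM (median 5.69) in atrium-free hearts. Myl2, its ventricular counterpart, ranged from 38.9 to 11633 FPKM (median 4866) in atrium-containing hearts, against 10463 to 13849 FPKM (median 12268) in atrium-free hearts. In heart I53 (ND6, non-exercised) Myl7 stood at 8822 and Myl2 at 38.9 FPKM. The FPKM of Myl4 over that of Myl7 varied little, at 0.779 to 1.19 over the 24 atrium-containing hearts, while Nppa over Myl7 varied from 1.71 to 6.27. Sln over Pln, the pair of calcium pump inhibitors, had a median FPKM ratio of 0.370 in atrium-containing and 0.000209 in atrium-free hearts.

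Among 10 tested genes for secreted peptides and their processing, 8 were higher and 0 lower. Nppa ranged from 438 to 22441 CPM (median 7078) in atrium-containing hearts, against 17.03 to 283 CPM (median 88.9) in atrium-free hearts. The groups did not overlap, and the log2 fold change was 6.91 ± 0.52 (adjusted p = 4.55e-14). Bmp10, a growth factor of atrial muscle, ranged from 1.3 to 4746 CPM (median 972) in atrium-containing hearts, against 0.209 to 6.51 CPM (median 1.65) in atrium-free hearts. Despite the overlap, its fitted log2 fold change of 9.09 ± 0.85 (adjusted p = 2.44e-11) was the highest of all genes tested. Nppb, which encodes B-type natriuretic peptide, was not called, with 24.5 to 265 CPM (median 152) in atrium-containing hearts, against 9.76 to 824 CPM (median 117) in atrium-free hearts, a full overlap, and a log2 fold change of -0.35 ± 0.40 (adjusted p = 0.473).

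Genes that process or accompany the granule peptides were higher as well. Pam, the amidating enzyme abundant in atrial granule membranes, ranged from 708 to 7184 CPM (median 3952) in atrium-containing hearts, against 404 to 719 CPM (median 529.6) in atrium-free hearts. Its log2 fold change was 2.70 ± 0.27 (adjusted p = 1.44e-10), and the groups overlapped at the edge. Corin, the protease that cleaves the precursor of atrial natriuretic peptide, was higher by 0.74 ± 0.12 (adjusted p = 1.59e-06). Dkk3, a secreted member of the Dickkopf family, ranged from 36.2 to 1479.8 CPM (median 576) in atrium-containing hearts, against 1.87 to 27.2 CPM (median 2.78) in atrium-free hearts, without overlap, and differed by 6.83 ± 0.45 (adjusted p = 5.27e-16). Clu, which encodes the secreted chaperone clusterin, was higher by 1.51 ± 0.19 and the vasodilator Adm by 1.45 ± 0.29. Scg2 and Chga, granins of secretory granules, were too low to be tested.

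Relative to Myl7, Bmp10 varied among atrium-containing hearts over a wider range than Myl4, Nppa, Sln or Mybphl did. In the 24 hearts the CPM of Bmp10 over that of Myl7 took 7 values from 0.000781 to 0.0788 and 17 values from 0.353 to 2.81. The 7 hearts of lowest ratio were B81, A71, I76, I56, I63, I4 and I50, 5 of them ND6. Heart A71 (ANT1, exercised) had 2.56 CPM of Bmp10 beside 2417 CPM of Myl7, and heart B81 (ND5, non-exercised) 1.30 beside 1669 CPM. Heart I53 had 4746 CPM of Bmp10 beside 2223 CPM of Myl7. The 7 hearts were picked out after their values were seen, so no test is given, and which atrium was sampled is not in the labels.

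**Figure D3:**
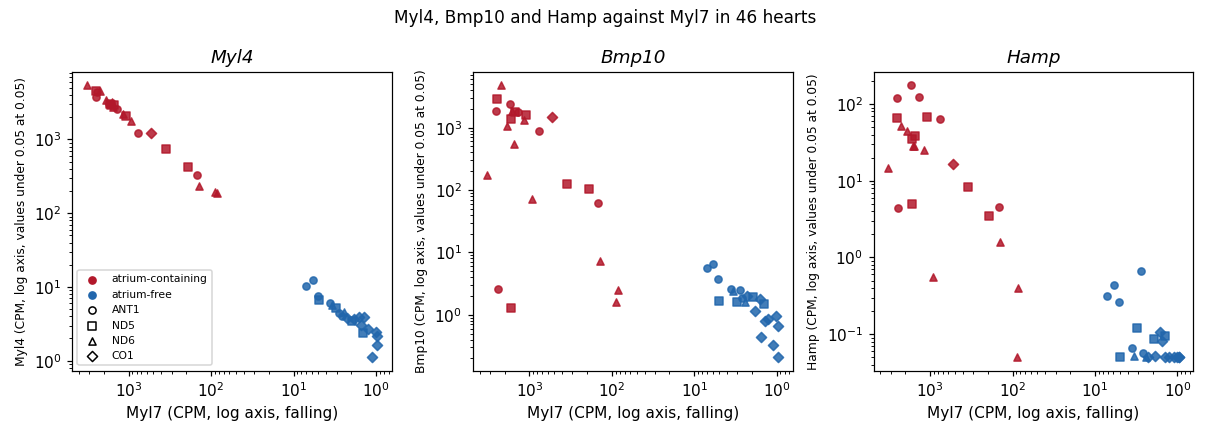
Levels of Myl4, Bmp10 and Hamp (vertical axes, CPM, log) against Myl7 (horizontal axis, CPM, log, falling to the right) in 46 hearts, atrium-containing in red and atrium-free in blue, with a symbol per strain. Myl4 keeps a narrow relation to Myl7, Bmp10 is at 1.30 and 2.56 CPM in hearts B81 and A71 beside Myl7 of 1669 and 2417 CPM, and the highest Hamp, a gene that encodes the iron hormone hepcidin, is 175 CPM.

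Hamp, which encodes the iron hormone hepcidin, was named after its values were seen and ranged from 0 to 175 CPM (median 27.02) in atrium-containing hearts, against 0 to 0.657 CPM (median 0.0543) in atrium-free hearts. Its fitted log2 fold change was 8.27 ± 0.76. Hearts I76, I56 and I50 lay inside the atrium-free range. Hearts B81 and A71 had 4.97 and 4.36 CPM and heart A80 (ANT1, non-exercised) the highest value.

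Of 11 transcription factors listed as atrial, 7 were higher and 1 lower, Gata4, by a small margin that turned with library size alone. Tbx5, a T-box factor needed for atrial identity, ranged from 17.7 to 186 CPM (median 91.9) in atrium-containing hearts, against 5.04 to 21.8 CPM (median 16.02) in atrium-free hearts. The groups overlapped between 17.7 and 21.8 CPM, and the log2 fold change was 2.71 ± 0.28 (adjusted p = 1.98e-10). Nr2f1 and Nr2f2, the COUP-TF factors of which Nr2f2 sets atrial identity in the mouse, were higher by 1.90 ± 0.24 (adjusted p = 3.6e-08) and 1.25 ± 0.17 (adjusted p = 6.45e-08). Gata5, a zinc finger factor, was higher by 2.80 ± 0.38 at a low level, with a median of 2.6 CPM in atrium-containing and 0.297 CPM in atrium-free hearts, and Gata6 by 0.37 ± 0.07. Meis2 was not called, at 0.01 ± 0.08 log2 units.

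Atrial ion channel genes were mixed, with 6 higher and 2 lower of 12. Kcnj3 and Kcnj5 encode the 2 subunits of the potassium channel that acetylcholine opens. Kcnj3 ranged from 45.5 to 617 CPM (median 327) in atrium-containing hearts, against 34.7 to 98.3 CPM (median 58.3) in atrium-free hearts, a log2 fold change of 2.44 ± 0.27 (adjusted p = 1.51e-09). Kcnj5 was higher by 1.32 ± 0.21 (adjusted p = 1.65e-06), and both overlapped between groups. Cacna1h, a T-type calcium channel, ranged from 9.15 to 219 CPM (median 101) in atrium-containing hearts, against 1.19 to 8.21 CPM (median 4.75) in atrium-free hearts. Together with Cacna1d, an L-type channel of pacemaking cells, at 2.98 ± 0.29, it showed no overlap, and its log2 fold change was 4.47 ± 0.40 (adjusted p = 9.11e-12).

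Kcna5, on the same list, carries an ultrarapid potassium current of human atria and was lower, with 3.46 to 26.8 CPM (median 12.8) in atrium-containing hearts, against 12.4 to 32.7 CPM (median 26.2) in atrium-free hearts and a log2 fold change of -0.81 ± 0.18 (adjusted p = 0.000143), which was 0.03 with Upk3b, an epicardial gene described below, held constant. Kcnk3, a background potassium channel, was not called, at 0.01 ± 0.08. Auxiliary calcium channel subunits outside the list were higher, Cacna2d3 by 3.89 ± 0.33 and Cacna2d2, named after its values were seen, by 5.45 ± 0.48.

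Genes of the sinus node, the pacemaker in the wall of the right atrium, were mostly higher (8 of 11, with 2 lower). The 8 include Isl1 and Vsnl1, which entered the test only from atrium-containing hearts. Shox2, a node factor, ranged from 0.34 to 24.5 CPM (median 4.16) in atrium-containing hearts, against 0.248 to 1.15 CPM (median 0.452) in atrium-free hearts, a log2 fold change of 3.05 ± 0.53 (adjusted p = 6.41e-06). The pacemaker channel gene Hcn4 was higher by 0.89 ± 0.32 (adjusted p = 0.0172). Hcn4 reached 29.3 CPM in heart I63 (ND6, exercised) and 20.1 CPM in heart A17 (ANT1, exercised), against at most 7.32 CPM in atrium-free hearts. The log2 fold change of Hcn4 was 0.62 and no longer called without heart A17, and it turned to -0.26 with Upk3b held constant. Isl1, which marks node cells, reached 3.85 CPM in heart I63. Tbx3 and Smoc2 were lower, at -0.36 ± 0.15 and -0.55 ± 0.13, Tbx3 with a call that leaving out any of several single hearts ended and a sign that turned when Upk3b was held constant.

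Conduction genes gave 6 higher and 2 lower of 10. The 6 include Gjd3, at most 0.128 CPM in atrium-free hearts, which entered the test only from atrium-containing hearts. Gja5, the connexin of atrial muscle and the fast conduction system, ranged from 2.94 to 97.2 CPM (median 18.7) in atrium-containing hearts, against 2.21 to 5.63 CPM (median 3.52) in atrium-free hearts, with a log2 fold change of 2.61 ± 0.38 (adjusted p = 3.51e-07). Etv1, a factor of fast-conducting muscle, showed no overlap, with 9.91 to 67.8 CPM (median 27.7) in atrium-containing hearts, against 3.79 to 9.22 CPM (median 6.64) in atrium-free hearts, and differed by 2.12 ± 0.21 (adjusted p = 1.38e-10). Cntn2 and Scn10a were higher by 5.68 ± 0.81 and 3.36 ± 0.37. Gja1, the connexin of working muscle in both chambers, was not called, at -0.01 ± 0.19 log2 units.

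Autonomic signalling genes were 5 higher and 3 lower of 13, or 11 and 1 with library size alone. Their shares lay near those over all genes, 30.1% higher and 26.3% lower. With library size alone 10697 of all genes were higher and 1066 lower. Chrm2, the muscarinic receptor through which the vagus slows the heart, ranged from 56.7 to 288 CPM (median 188) in atrium-containing hearts, against 31.9 to 126 CPM (median 70.1) in atrium-free hearts, a log2 fold change of 1.25 ± 0.20 (adjusted p = 2.23e-06). Rgs6, which ends that receptor's signal, was higher by 2.16 ± 0.29 (adjusted p = 7.47e-08). Adra1a, an alpha-adrenergic receptor, was lower, at -1.12 ± 0.33 (adjusted p = 0.0044). The beta-adrenergic receptor Adrb1 was not called, at 0.25 ± 0.18.

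Of 10 further genes listed as enriched in atria, 7 were higher and 0 lower (median 1.77). The 7 include Fgf12 and Cpne5, which entered the test only from atrium-containing hearts. Fgf12, which binds sodium channels inside the cell, ranged from 3.56 to 117 CPM (median 58.6) in atrium-containing hearts, against 0 to 0.442 CPM (median 0.132) in atrium-free hearts, with a fitted log2 fold change of 8.15 ± 0.55. Stard10, a lipid transfer protein, was present in both groups and still separated, with 33.1 to 648 CPM (median 269) in atrium-containing hearts, against 11.97 to 19.4 CPM (median 14.7) in atrium-free hearts, and differed by 4.10 ± 0.33 (adjusted p = 5.98e-13). Outside the lists, the smallest p-values belonged to genes with little signal in atrium-free hearts. Tmem163, a zinc transporter, ranged from 3.66 to 119 CPM (median 57.8) in atrium-containing hearts, against 0 to 0.259 CPM (median 0.103) in atrium-free hearts. Its fitted log2 fold change was 8.78 ± 0.55, that of Cilp2, a matrix protein, 7.71 ± 0.50 and that of Lmntd1 7.64 ± 0.52. Rxfp1, the relaxin receptor, had a median of 24.6 CPM in atrium-containing and 0.134 CPM in atrium-free hearts, at 6.93 ± 0.50 log2 units. Mlana, known from melanocytes, had 0.6 to 48.9 CPM (median 14.7) in atrium-containing hearts, against 0 to 0.328 CPM (median 0) in atrium-free hearts. Ptgfr, the prostaglandin F receptor, was higher by 3.88 ± 0.33. Apart from Cpne5, the groups did not overlap in any of these genes. Only Stard10 and Ptgfr among them would have entered the test from atrium-free hearts alone.

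Of 12 genes listed as ventricular contractile proteins, 11 were lower with TMM (median log2 fold change -0.58), 7 with library size alone and 0 higher in either. The list holds genes that both chambers use, such as Mybpc3, beside the ventricular light chains. Myl2, the ventricular regulatory light chain, ranged from 11.4 to 5185 CPM (median 1814) in atrium-containing hearts, against 4868 to 7187 CPM (median 5421) in atrium-free hearts. In 22 of 24 atrium-containing hearts it lay under every atrium-free heart, and the log2 fold change was -1.35 ± 0.38 (adjusted p = 0.00287). Hearts I53, B71 and A17 had 11.4, 76.01 and 150.3 CPM, while hearts A58 and A76 had 4888 and 5185 CPM, within the atrium-free range. Myl3, the ventricular essential light chain, had a median of 1466 CPM in atrium-containing and 4393 CPM in atrium-free hearts, with a log2 fold change of -1.34 ± 0.36 (adjusted p = 0.00156). Mybpc3, which tethers myosin in both chambers, was lower, at -0.82 ± 0.13 (adjusted p = 1.09e-06), and Tnnc1, the slow troponin C, at -0.78 ± 0.12 (adjusted p = 1.2e-06). Myom2 was not called, at -0.12 ± 0.13. In non-exercised hearts alone 5 of the 12 were called lower, and Myl2 and Myl3 were not, at -1.19 and -1.16 (adjusted p = 0.154 and 0.130 by edgeR). With Adipoq, a fat gene, held constant 5 were called lower, without Myl2 and Myl3 (-1.10 and -1.09). With Upk3b held constant 0 of the 12 were called lower, Myl2 standing at -0.37 and Myl3 at -0.36. Over all genes these fits called 1327, 2148 and 53 lower in the same order, against 4114 in the main comparison.

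Ventricular transcription factors gave 4 lower and 1 higher of 9 tested. Irx4, a homeobox factor of ventricular muscle, ranged from 0 to 29.7 CPM (median 7.68) in atrium-containing hearts, against 13.03 to 33.9 CPM (median 20.4) in atrium-free hearts, a log2 fold change of -1.15 ± 0.34 (adjusted p = 0.00361). It was at 0 in heart I53. Irx1 had 0 to 3.58 CPM (median 0.388) in atrium-containing hearts, against 0.16 to 8.76 CPM (median 5.05) in atrium-free hearts, and Irx3, which acts in the ventricular conduction system, had a median of 5.8 CPM in atrium-containing and 15.4 CPM in atrium-free hearts. Their log2 fold changes were -2.04 ± 0.45 (adjusted p = 0.000187) and -0.94 ± 0.26 (adjusted p = 0.00214). Tbx20 was higher, by 0.51 ± 0.11 (adjusted p = 0.000186), and Hey2 was not called, at 0.08 ± 0.18. In non-exercised hearts alone Irx4 was not called, at -0.99 (adjusted p = 0.178 by edgeR), and with Upk3b held constant none of Irx1, Irx3 and Irx4 was, at -0.25, -0.36 and -0.72.

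Ventricular channel genes were 5 lower and 2 higher of 11, or 3 lower and 4 higher with library size alone. Kcnip2, a subunit of the transient outward potassium current, ranged from 23.6 to 214 CPM (median 59.2) in atrium-containing hearts, against 106 to 185 CPM (median 145) in atrium-free hearts, a log2 fold change of -0.96 ± 0.21 (adjusted p = 0.000201). Scn4b, a sodium channel subunit, ranged from 0.815 to 97.2 CPM (median 29.9) in atrium-containing hearts, against 46.02 to 167 CPM (median 64.05) in atrium-free hearts, and differed by -1.15 ± 0.23 (adjusted p = 6.77e-05). Kcnh2, the rapid delayed rectifier, was higher by 0.85 ± 0.14 (adjusted p = 3.07e-06). In non-exercised hearts alone, and with Upk3b held constant, 0 channel genes were called lower. Over all genes these fits called 1327 and 53 lower, against 4114 in the main comparison. A 0 among 11 genes therefore does not set the list apart.

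Calcium handling genes gave 8 lower and 4 higher of 16, or 3 and 9 with library size alone. Sln, which is also on the atrial contractile list, is among the 4. Pln, which encodes phospholamban, the calcium pump inhibitor of the ventricle, ranged from 1119 to 6053 CPM (median 3296) in atrium-containing hearts, against 4235 to 6771 CPM (median 5523) in atrium-free hearts. It was lower, at -0.77 ± 0.16 (adjusted p = 0.000101), against the far larger difference of Sln in the other direction. Jph2, which holds the release sites to the cell membrane, was lower, at -0.57 ± 0.10 (adjusted p = 5.82e-06). Ryr2, the release channel, was not called with TMM, at a log2 fold change near 0, and was called higher with library size alone. Ryr3, named after its values were seen, was higher by 3.13 ± 0.39. Among calcium handling genes too, 0 were called lower in non-exercised hearts alone or with Upk3b held constant, where Pln stood at -0.72 and -0.31. Over all genes the same fits called 1327 and 53 lower.

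By the smallest p, genes lower in atrium-containing hearts differed little. The 20 genes that the naming rule took had log2 fold changes between -0.79 (Rasgrp3) and -0.28 (Sypl). Larger differences, picked by size after values were seen, were those of Acta1, skeletal alpha actin, at -1.75 ± 0.64 (adjusted p = 0.0193), and Ankrd23, a titin-binding stretch protein, at -1.68 ± 0.28 (adjusted p = 5.02e-06). Lrtm1 and Cyfip2 were lower, at -1.42 ± 0.37 and -1.32 ± 0.28 log2 units.

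**Figure D4:**
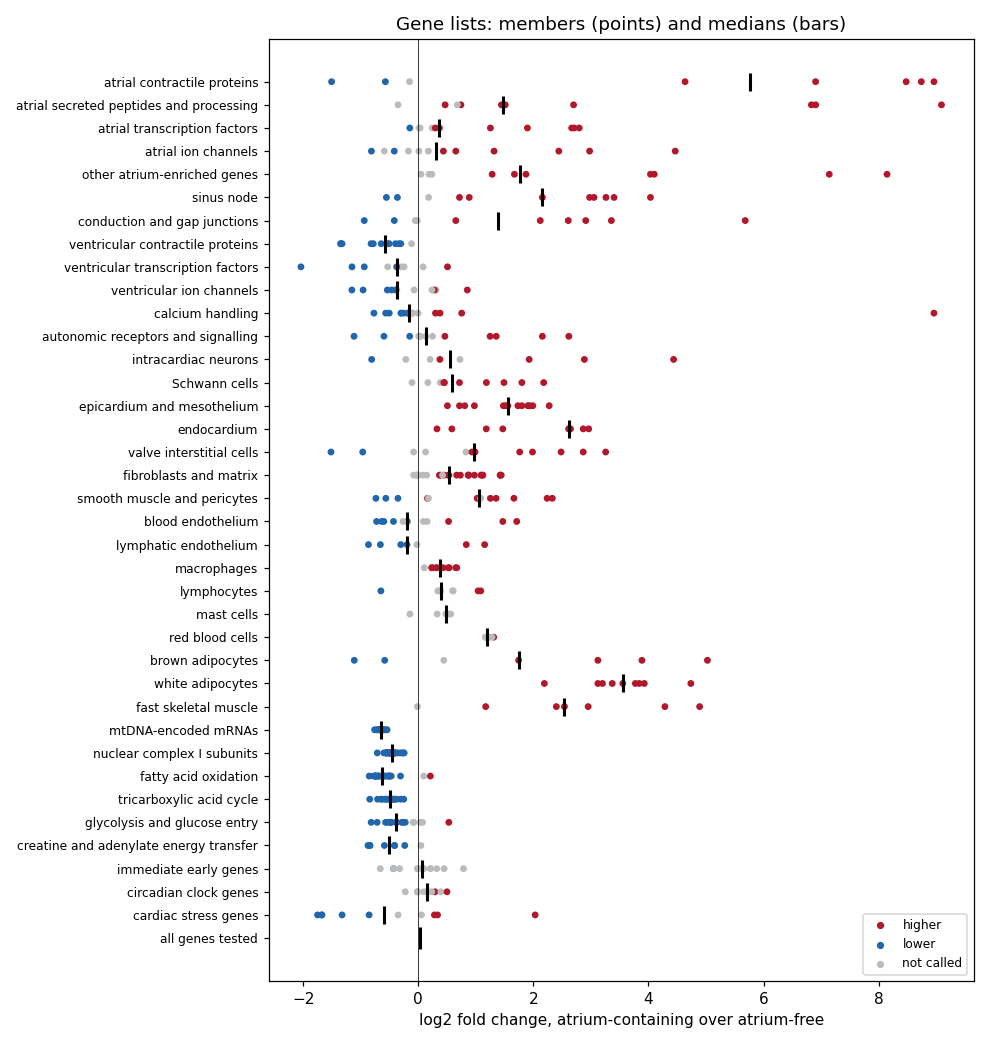
Log2 fold change of atrium-containing over atrium-free hearts (horizontal axis) for the members (points) and the median (bars) of each gene list with at least 5 genes tested, called genes higher in red, lower in blue and others in grey. Atrial and adipocyte lists spread to the right of the median of all genes at 0.04, and lists of mitochondrial energy metabolism lie to its left.

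Genes of mitochondrial energy supply were mostly lower in the comparison of all 46 hearts. All 13 mRNAs of mtDNA were lower, with a median log2 fold change of -0.66, or -0.35 with library size alone. Of their number, mt-Co1, a complex IV subunit, had a median of 80271 CPM in atrium-containing and 122005 CPM in atrium-free hearts, a log2 fold change of -0.69 ± 0.13 (adjusted p = 2.43e-05). All 36 nuclear complex I subunits were lower with TMM (median -0.46) and 21 with library size alone, and all 18 genes of the tricarboxylic acid cycle with TMM (median -0.49), 12 with library size alone. Fatty acid oxidation gave 21 lower and 1 higher of 23 (19 and 2 with library size alone), among them Acadm, the medium-chain dehydrogenase, at -0.74 ± 0.15 (adjusted p = 6.46e-05), and Fabp3, the fatty acid carrier of muscle, at -0.85 ± 0.17 (adjusted p = 6.05e-05).

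The number of these calls fell with fewer hearts and with markers of other cells held constant, as it did over all genes. In non-exercised hearts alone the genes called lower numbered 5 of mtDNA, 10 of complex I, 6 of the tricarboxylic acid cycle and 3 of fatty acid oxidation. The epicardial gene Upk3b and the fat gene Adipoq moved with the same classes, at medians of 50.9 and 9.7 CPM in atrium-containing against 11.2 and 0.226 CPM in atrium-free hearts. With Adipoq held constant 12, 24, 16 and 20 genes of the same 4 lists were called lower. With Upk3b held constant 0 were in any of the 4, mt-Co1 standing at -0.21 and Acadm at -0.22, and the part of these cells in the difference was not tested. Over all genes the fits of non-exercised hearts, with Adipoq and with Upk3b called 1327, 2148 and 53 lower, against 4114 in the main comparison.

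Energy transfer and glucose use went the same way. Ckm, muscle creatine kinase, ranged from 355 to 1823 CPM (median 857) in atrium-containing hearts, against 1359 to 2329.7 CPM (median 1611) in atrium-free hearts, a log2 fold change of -0.87 ± 0.16 (adjusted p = 1.47e-05). Creatine and adenylate transfer genes were lower in 7 of 8 with TMM and 4 of 8 with library size alone. The 7 include Slc25a4, the gene that ANT1 hearts lack, at -0.59 ± 0.12 with strain as covariate. Glycolysis gave 15 lower and 1 higher of 20, or 8 and 6 with library size alone. Hk2 and Ldhb, the hexokinase and lactate dehydrogenase of oxidative muscle, were lower, at -0.82 ± 0.13 (adjusted p = 1.1e-06) and -0.71 ± 0.14 (adjusted p = 2.94e-05). Ppargc1a, a driver of mitochondrial genes, was lower, with 55.7 to 551 CPM (median 143) in atrium-containing hearts, against 66.9 to 674 CPM (median 439.5) in atrium-free hearts and a log2 fold change of -1.11 ± 0.33 (adjusted p = 0.00366). With Upk3b held constant 0 genes of glycolysis and 0 of creatine and adenylate transfer were called lower, and in non-exercised hearts alone 4 and 2. Over all genes these fits called 53 and 1327 lower.

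The share of all counts from mtDNA genes was lower in atrium-containing hearts, at 15.6% to 34.7% (median 23.5%) against 26.3% to 39.4% (median 28.6%) in atrium-free hearts. The strain-adjusted difference was -7.01 percentage points (two-sided permutation within strains, adjusted p = 1.5e-05, resting on the smallest p that 100000 draws can give). In ANT1 the mean share was 28.6% ± 4.34 against 36.4% ± 1.82 (SD, n = 6 and 6), in ND5 21.6% ± 5.22 against 27.9% ± 0.639 (SD, n = 7 and 4), and in ND6 23.7% ± 4.30 against 31.5% ± 0.813 (SD, n = 10 and 2). The single atrium-containing CO1 heart had 23.2%, and the 10 atrium-free CO1 hearts 28.03% ± 0.796 (SD).

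**Figure D5:**
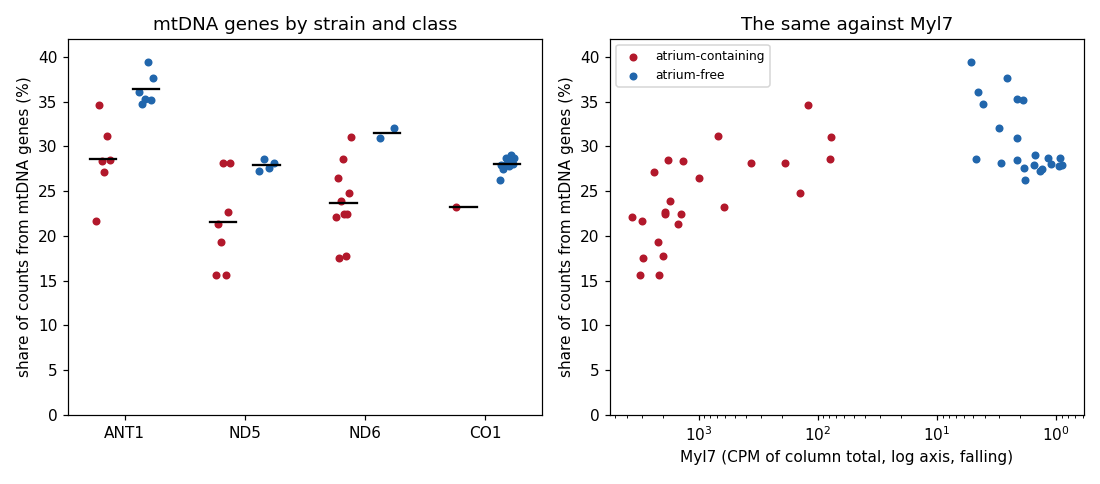
Share of counts from mtDNA genes in percent, by strain with a line at each mean (left) and against Myl7 on a falling log axis (right), for 24 atrium-containing (red) and 22 atrium-free (blue) hearts. Within each strain the mean of atrium-containing hearts lies lower, and outside ANT1 the highest share of an atrium-containing heart is 31.1%, in I76.

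Markers of other cell types moved with the classes. All 13 genes of epicardium and mesothelium were higher (median 1.56), Upk3b, a marker of the mesothelial covering, with 14.4 to 111 CPM (median 50.9) in atrium-containing hearts, against 4.39 to 45.5 CPM (median 11.2) in atrium-free hearts. The summed level of that list was 57.9 to 337 CPM in atrium-containing and 28.8 to 127 CPM in atrium-free hearts, with none of its genes at 0 throughout. Endocardial genes were higher in 9 of 9 (median 2.62), at a summed 192 to 1002 CPM in atrium-containing and 109.8 to 315 CPM in atrium-free hearts. Among them were Npr3, the clearance receptor of natriuretic peptides, with 24.6 to 279.6 CPM (median 98.5) in atrium-containing hearts, against 6.06 to 36.7 CPM (median 13.7) in atrium-free hearts, and Plvap, which forms diaphragms of fenestrated vessels, at 2.62 ± 0.29.

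Fat genes were higher too. White adipocyte genes were higher in 9 of 9 (median 3.55), at a summed 5.24 to 968 CPM in atrium-containing and 0.678 to 144 CPM in atrium-free hearts. Adipoq, the adipocyte hormone adiponectin, ranged from 0.485 to 112 CPM (median 9.7) in atrium-containing hearts, against 0 to 14.6 CPM (median 0.226) in atrium-free hearts. Ucp1, the uncoupling protein of brown fat, reached at least 5 CPM in 10 atrium-containing hearts and in 1 atrium-free heart. Without these 11 hearts 7224 of the 8818 called genes were called in the same direction.

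Holding a marker constant changed the counts more. With Adipoq as a further covariate 2664 genes were higher and 2148 lower. With Upk3b they were 319 and 53, and 357 of the 8818 genes were called in the same direction. Upk3b itself differed between the classes by 1.90 ± 0.28 (adjusted p = 6e-07), and the part of the covering layers or of fat in any single difference was not tested. In that fit Myl4, Sln, Mybphl and Nppa were still called higher, at 7.52, 7.28, 6.69 and 5.79 log2 units. Of the genes named, 48 lost their call and 5 turned in sign. Each of the 14 lists with more genes lower than higher, the ventricular and energy lists included, went to 0 genes called lower. With 53 genes called lower over all genes in that fit, a 0 does not set these lists apart. Genes called higher numbered 1 of the 11 atrial transcription factors, 1 of the 11 sinus node genes and 4 of the 9 endocardial genes. Of the 8 genes listed as atrial contractile proteins 5 were called higher.

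The following lists of other cells held more genes higher than lower with TMM, apart from blood endothelium. Over all genes 30.1% were higher and 26.3% lower. Of 25 fibroblast and matrix genes 17 were higher and 0 lower, at a summed 2379 to 6125 CPM in atrium-containing and 1723 to 2840 CPM in atrium-free hearts. Gsn, which encodes gelsolin, did not overlap, at 982 to 2687 CPM (median 1577) in atrium-containing hearts, against 617 to 919 CPM (median 738) in atrium-free hearts. Schwann cell genes were higher in 7 of 10, Mbp, a myelin protein, by 2.18 ± 0.22 (adjusted p = 2.04e-10). Of 20 genes of intracardiac neurons 12 were too low to be tested, the defining Chat among them, and 4 of 8 were higher (2 without heart A17). The 4 include Syt1 and Prph, which entered the test only from atrium-containing hearts. Smooth muscle genes were 7 higher and 3 lower of 12, but 1 higher without heart E50, the atrium-containing CO1 heart, and 4 without heart A17, with Rgs5, a pericyte gene, lower at -0.74 ± 0.15 (adjusted p = 4.83e-05). Blood endothelium gave 3 higher and 5 lower of 11, or 5 and 3 with library size alone, Vwf being higher by 1.47 ± 0.23 (adjusted p = 1.31e-06) and Kdr, a receptor of capillaries, lower at -0.60 ± 0.11 (adjusted p = 1.58e-05). Macrophage genes were higher in 9 of 10 by small margins (median 0.38). In non-exercised hearts alone, with Adipoq held constant and with Upk3b held constant, genes called higher numbered 11, 9 and 4 for fibroblasts. In the same order they numbered 5, 2 and 1 for Schwann cells and 1, 1 and 0 for neurons. They were 0, 0 and 0 for smooth muscle and 6, 3 and 0 for macrophages, against 2097, 2664 and 319 over all genes.

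Of 12 genes of valve cells 7 were higher and 2 lower, Comp, a cartilage matrix protein, by 3.26 ± 0.29. Lymphatic genes gave 2 higher and 4 lower of 7, or 2 and 0 with library size alone. Lymphocyte genes gave 2 higher (0 to 5 on leaving out single hearts) and 1 lower of 9, and mast cell genes 0 of 5 in either direction (2 higher without heart I95). Brown fat genes gave 4 higher and 2 lower of 7, with Ppargc1a and Cox7a1 lower. Of 9 genes of lung epithelium 8 and of 8 thymus genes 6 were too low to be tested, and the rest were not called. Cardiac stress genes gave 3 higher and 5 lower of 10.

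Red cell genes were 1 higher of 7, and 0 to 7 on leaving out single hearts, with a wide spread of 2048 to 132200 CPM summed in atrium-containing and 775 to 24050 CPM in atrium-free hearts. Fast skeletal muscle genes were higher in 6 of 7 tested (median 2.54) at low levels, such as Atp2a1, the fast calcium pump, with 0.791 to 24.4 CPM (median 3.21) in atrium-containing hearts, against 0.189 to 1.49 CPM (median 0.575) in atrium-free hearts, while Myh1, Myh2 and Myh4 were at 0 in most hearts. The 6 include Myh8 and Pvalb, at most 0.165 and 0.0535 CPM in atrium-free hearts, which entered the test only from atrium-containing hearts. Immediate early genes gave 0 higher and 1 lower of 14 (2 lower without heart B69, B83 or I76), and circadian clock genes 2 higher and 0 lower of 12 (1 to 4 higher on leaving out single hearts), or 5 and 0 of 14 and 7 and 0 of 12 with library size alone.

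The classes were spread unevenly over strains. Of hearts in either class, 10 of 12 were atrium-containing in ND6, 7 of 11 in ND5, 6 of 12 in ANT1 and 1 of 11 in CO1 (two-sided Fisher's exact test over the 4 strains, p = 0.00268). Among exercised hearts 14 were atrium-containing and 10 atrium-free, against 10 and 12 among non-exercised hearts (Fisher's exact test, p = 0.555). In fits of a single strain, Myl4 differed by 8.43 in ANT1, 9.06 in ND5 and 8.86 log2 units in ND6, and Myl2 by -1.32, -1.52 and -1.31 (adjusted p = 0.103, 0.165 and 0.422 by edgeR). ND6 alone, with 10 against 2 hearts, gave adjusted p = 0.0879 for Myl4 by edgeR.

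The class difference was then compared between training arms and between strains by interaction tests. Between exercised and non-exercised hearts it differed in 0 of 15801 genes by edgeR (0.0%), with 336 (2.13%) at an unadjusted p under 0.05, and in 0 by DESeq2. Myl4 differed by 8.83 log2 units in exercised and 8.57 in non-exercised hearts, an interaction of 0.29 ± 0.63 (SE). Myl2 and Irx4 were called lower in exercised hearts alone, at -1.45 and -1.40 (adjusted p = 0.0350 and 0.0142 by edgeR), and not in non-exercised hearts alone, as given above, a difference between arms that did not pass the interaction test. Between ANT1 and the mean of ND5 and ND6 it differed in 8 of 16527 genes (0.0484%) by edgeR, with 1476 (8.93%) at an unadjusted p under 0.05, and in 35 by DESeq2. CO1 could not enter, with 1 atrium-containing heart. Among the 8, Arhgef17, an exchange factor of small GTPases, had medians of 78.7 against 33.1 CPM in ANT1, 78.2 against 67.9 CPM in ND5 and 66.4 against 71.01 CPM in ND6 hearts. Bcl2l11, a promoter of cell death, had medians of 18.9 against 4.86 CPM in ANT1, 15.1 against 9.52 CPM in ND5 and 10.8 against 18.1 CPM in ND6. The last value comes from 2 atrium-free ND6 hearts, at 7.31 and 28.8 CPM. Myl4 and Myl2 were not among them, with interactions of -0.55 ± 0.89 and 0.08 ± 0.99 (SE).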

How the data were processed

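RNA sequencing was read from 2 whole-series heart tables, which hold expected counts and FPKM per gene. The submitters' processing notes name STAR 2.5.2b (an aligner), RSEM 1.2.28 (which estimates counts per gene) and mm10, with no settings. The deposited expected counts are not normalized, and the deposited FPKM values are scaled by length and depth. The sources do not state whether counting used strand. Of the columns per table, 12 could not be tied to a labelled mouse and were not used.

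Expected counts were rounded. Of 53656 genes, those passing filterByExpr were fitted with edgeR 4.0.16 (limma 3.58.1, R 4.3.3), TMM factors, strain and class as terms, the quasi-likelihood test and Benjamini-Hochberg adjustment over all genes tested. The threshold was an adjusted p of 0.05, and Myl7 was left out of all counts of genes. SE is the log2 fold change divided by the root of F. DESeq2 1.42.0 served as an alternative. Fisher's exact test and permutation within strains (100000 draws) used single values per heart. Levels between genes were compared as FPKM. The code was tested on simulated data.

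The members, the 39 gene lists and their tests were chosen with earlier results of these data known. Named genes were the markers, the members of cardiac lists, the 5 smallest p in each other list and the 20 smallest p in each direction at an average log2 CPM of 1 or more; others are marked as chosen after their values were seen or serve as further examples of a list. No pair among 120 pairs of hearts of the same strain and arm held identical values. Where nothing states separate handling, p-values measure only the spread between these samples. Some genes are not reported here. The promoters are from RefSeq (GRCm38.p6). Alternatives covered scaling, filters, Myl7 limits, covariates, strains, arms and single hearts. Those holding Adipoq or Upk3b constant, leaving out hearts with Ucp1, and fitting single strains were chosen after seeing the data.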

Additional observations from a re-analysis of the deposited data

Results flagged for a closer look

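The class difference was not the same in ANT1 as in ND5 and ND6 for 8 of 16527 genes by the interaction test (edgeR, adjusted p under 0.05). The difference in ANT1 minus that in ND5 and ND6, on the log2 scale, was 1.14 ± 0.22 (SE) for Arhgef17 and 1.67 ± 0.33 for Bcl2l11, both with adjusted p = 0.0403. For Zdhhc2, a palmitoyltransferase, it was -1.24 ± 0.25 (adjusted p = 0.0403), with medians of 5.25 against 7.14 CPM in ANT1, 4.36 against 2.83 CPM in ND5 and 5.03 against 2.84 CPM in ND6 for atrium-containing against atrium-free hearts. The other 5 carry clone names, with 1.72 for RP24-179D17.1, 2.18 for RP24-477O8.1, 2.42 for another clone of the RP24 series, 3.12 for RP24-270K22.1 and -5.29 for RP24-370G18.1. All but RP24-179D17.1 among these 5 had medians under 2 CPM, and RP24-370G18.1 was at 0 in both atrium-free ND6 hearts.

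Both hearts outside the classes carried atrial genes. Heart E42 (CO1, non-exercised) had 89.7 CPM of Myl4 and 150.2 CPM of Bmp10, against at most 12.3 and 6.51 CPM in atrium-free hearts. Heart B80, left out for its conflicting label, had 664.6 CPM of Myl4 and 173.5 CPM of Bmp10. Its Myl2 stood at 10.3 CPM, its Slc25a4 at 471 CPM and its Ucp1 at 202 CPM.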

How the results depend on the processing

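The counts of called genes depended most on scaling, on the marker covariates and on sample number. Genes higher numbered 10697 with library size alone, 2097 in non-exercised hearts, 2664 with Adipoq and 319 with Upk3b held constant, 1779 in ANT1, 1877 in ND5 and 0 in ND6 alone. Genes lower numbered 1066, 1327, 2148, 53, 1546, 920 and 1 in the same order of settings. Genes at least 2-fold higher numbered 2273 with library size alone, 2317 with no filter, 496 with at least 50 counts, 873 with Adipoq, 215 with Upk3b, 681 in ANT1 and 0 in ND6. Genes at least 2-fold lower numbered 75 with library size alone, 405 with no filter, 70 with at least 50 counts, 338 at the stricter Myl7 limits, 68 in non-exercised hearts, 5 with Upk3b, 69 in ND5 and 0 in ND6. The interaction with ANT1 gave 35 genes by DESeq2, 5 with no filter and 1 with library size alone. Leaving out each heart gave 4447 to 4921 genes higher, 3911 to 4270 lower, 1268 to 1412 at least 2-fold higher and 150 to 218 at least 2-fold lower. The fits with single strains use fewer hearts, and the other causes were not tested.

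With library size alone the sign turned for Gata4 (0.19), Myh6 (0.18), Ryr2 (0.33) and Sypl (0.056). With Upk3b held constant it turned for Hcn4 (-0.26), Isl1 (-0.87), Kcna5 (0.028), Tbx3 (0.11) and Upk3b itself (-0.095, by construction), and with Adipoq for Isl1 (-0.27). Of the named genes, 48 lost their call with Upk3b, 15 with Adipoq, 24 in non-exercised hearts and 88 in ND6 alone. Tbx3 lost its call without any of hearts A23, A69, A71, A72, A73, A80, B5, B11, B21, B69, E50 or I62, at -0.36 to -0.31, Gata4 without I62 (-0.13) or I95 (-0.13), and Hcn4 without A17 (0.62), while Myh6 was called without I76 (-0.16). The 2 exact tests of class, the mtDNA share, the library total and the number of genes detected stayed on their side of the threshold under both other Myl7 limits and with B80 included. Genes with few counts, such as Isl1, are limited by depth. No paired analysis was possible because replicate numbers follow accession order and the classes come from Myl7.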
